A study of Homo sapiens with 4 samples.

Results

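The mitochondrial ribosomal protein genes were examined in RNA-seq libraries of the mammary epithelial line MCF10A, which is human and not tumorigenic, with and without overexpression of the heat shock transcription factor HSF1. The members were all protein-coding genes whose symbol begins with MRPL or MRPS followed by a number, with pseudogenes excluded. This gave 78 of the 63856 genes in the count table, 49 of them MRPL (large subunit) and 29 MRPS (small subunit). Wild type (WT) cells, which were unmodified, were compared with HSF1-pLVX cells, which carried HSF1 cDNA in the pLVX-Puro lentiviral vector and had been selected with puromycin. Each group had 2 libraries, described by the study as biological replicates, and both were grown in DMEM/F12 with horse serum, insulin, hydrocortisone, EGF and cholera toxin. The published methods do not name cholera toxin among the additives. Cells with the empty vector were not analysed here, so the vector, the selection and the HSF1 insert cannot be told apart.

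Mitochondria keep their own ribosome, which translates the few proteins encoded by mitochondrial DNA, all of them subunits of the respiratory chain and ATP synthase. Its rRNAs are transcribed in the organelle, whereas every one of its proteins is encoded in the nucleus, made in the cytosol and imported. Some of these proteins descend from bacterial ribosomal proteins and others are found only in mitochondria. The large subunit joins amino acids and holds the exit tunnel for the new protein, and the small subunit binds the mRNA and reads its codons. Symbols do not always follow location. MRPS30 and MRPS18A encode proteins that sit in the large subunit, and MRPS36 encodes an adaptor of the 2-oxoglutarate dehydrogenase complex.

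The libraries held between 18688109 and 24184285 counts. Levels are given as CPM, counts scaled to a common library size after TMM normalization, and differences as log2 fold changes of HSF1-pLVX over WT with their standard errors (SE). Genes were tested with the quasi-likelihood method of edgeR, and a change was called where the p adjusted by Benjamini-Hochberg over 15830 tested genes was under 0.05. HSF1 itself was at 200.4 and 189.2 CPM in WT cells and at 982.4 and 998.6 CPM in HSF1-pLVX cells, a log2 fold change of 2.35 (SE 0.0999). All 10 epithelial markers examined were detected, and of these 4 rose and 6 fell, KRT14 the most with a log2 fold change of -3.55. Of 7 fibroblast markers 3 passed the filter on low counts, with DCN higher, FAP lower and COL1A1 not called, and none of the 3 endothelial markers passed. Of 4 leukocyte markers only CD14 passed the filter and was higher, while PTPRC was at 0 counts in all libraries. Whether the changed makeup of markers had a part in the results below was not tested. In bulk RNA, fewer cells with a transcript and less transcript per cell cannot be told apart.

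Of the 78 members, 69 had a promoter in the RefSeq table (GRCh38.p14), taken as 250 bases before and 50 after the start. The 200 bases upstream of the start are shown for MRPL11, MRPS6 and MRPS27, the members that rose more than 2-fold. They are also shown for MRPL1, MRPL30, MRPL33 and MRPL54, the called members with TTCNNGAA, a pair of inverted heat shock element units, in these bases. Capitals mark TTCNNGAA and the ETS factor core CCGGAAG on either strand, and all are written 5′ to 3′ along the gene.
MRPL11 at chr11:66438849-66439048, minus strand: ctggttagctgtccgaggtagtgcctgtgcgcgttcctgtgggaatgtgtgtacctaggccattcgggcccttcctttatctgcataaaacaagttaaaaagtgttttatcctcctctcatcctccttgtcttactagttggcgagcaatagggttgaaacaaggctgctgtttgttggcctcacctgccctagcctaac
MRPS6 at chr21:34073378-34073577, plus strand: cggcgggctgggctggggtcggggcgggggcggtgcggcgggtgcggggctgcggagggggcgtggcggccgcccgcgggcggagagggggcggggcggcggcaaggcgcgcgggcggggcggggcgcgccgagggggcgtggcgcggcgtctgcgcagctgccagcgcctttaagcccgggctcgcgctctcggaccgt
MRPS27 at chr5:72320241-72320440, minus strand: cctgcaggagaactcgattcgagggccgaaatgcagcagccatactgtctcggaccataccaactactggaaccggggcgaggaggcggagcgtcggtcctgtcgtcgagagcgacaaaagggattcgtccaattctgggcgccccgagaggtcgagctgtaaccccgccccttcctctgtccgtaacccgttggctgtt
MRPL1 at chr4:77862630-77862829, plus strand: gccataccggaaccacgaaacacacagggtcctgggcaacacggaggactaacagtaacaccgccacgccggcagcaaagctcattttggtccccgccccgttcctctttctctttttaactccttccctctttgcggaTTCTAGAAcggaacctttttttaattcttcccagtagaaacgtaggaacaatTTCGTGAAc
MRPL30 at chr2:99180984-99181183, plus strand: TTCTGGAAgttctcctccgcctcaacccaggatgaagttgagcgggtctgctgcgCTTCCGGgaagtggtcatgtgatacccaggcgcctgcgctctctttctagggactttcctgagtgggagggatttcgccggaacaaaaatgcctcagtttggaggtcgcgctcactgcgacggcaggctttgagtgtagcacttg
MRPL33 at chr2:27771519-27771718, plus strand: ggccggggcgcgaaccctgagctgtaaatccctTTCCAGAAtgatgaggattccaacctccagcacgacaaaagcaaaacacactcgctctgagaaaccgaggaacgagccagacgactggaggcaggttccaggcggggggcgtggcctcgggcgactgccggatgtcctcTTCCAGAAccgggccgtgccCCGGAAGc
MRPL54 at chr19:3762482-3762681, plus strand: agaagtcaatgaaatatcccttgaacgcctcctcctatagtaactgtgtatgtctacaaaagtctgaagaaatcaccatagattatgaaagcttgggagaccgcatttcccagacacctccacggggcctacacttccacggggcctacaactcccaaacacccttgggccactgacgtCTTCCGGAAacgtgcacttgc

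No marked motif lay in the 200 bases shown for the members that rose most, MRPL11, MRPS6 and MRPS27. TTCNNGAA lay upstream of members of both directions, at -61 and -9 in MRPL1 and at -200 in MRPL30, which rose, and at -167 and -28 in MRPL33 and at -20 in MRPL54, which fell. In MRPL54 it overlapped the ETS core at -21. Searched over the whole 300 bases and both strands, TTCNNGAA or its head-to-head counterpart GAANNTTC was found in 12 of the 69 members (17.4%) and in 11.4% of 15843 protein-coding promoters of the same length. Among the members with a promoter and a test, it was found in 4 of 26 that rose, 2 of 11 that fell and 4 of 29 that were not called.

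Among the other motifs searched, the ETS core was present in 29 members (42.0%) against 14.2% of all promoters, and AAGATGG, a core recognised by YY1, in 23 members (33.3%) against 6.4%. ETS factors such as GABPA and the zinc finger factor YY1 are known activators of nuclear genes for mitochondrial proteins. CGCATGC, the core of the NRF1 site, was found in 7 members (10.1%) against 5.1%, and the E-box CACGTG, which MYC and other factors bind, in 6 (8.7%) against 8.9%. By direction of change, the ETS core was present in 11 of 26 members that rose, 4 of 11 that fell and 13 of 29 that were not called. A match of letters is a description of the sequence and not a binding site.

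Of the 78 members, 75 passed the filter on low counts. In HSF1-pLVX cells 30 of them were higher and 14 lower, and 31 were not called. Over all tested genes 32.7% were called higher and 33.2% lower (65.9% in either direction), beside 40.0% and 18.7% of the members. Their changes were mostly small. Only MRPL11, MRPS6 and MRPS27 rose more than 2-fold and only MRPS36 fell more than 2-fold, whereas 14.9% of all tested genes rose and 14.0% fell by that much. The median log2 fold change of the members was 0.17, with quartiles of -0.11 and 0.43, against a median of 0.02 and quartiles of -0.55 and 0.61 over all tested genes. The libraries of the groups did not overlap for 59 of 75 members, and for 83.1% of all tested genes. With the second HSF1-pLVX library left out, 17 members were called higher and 6 lower. The lower calls numbered 7 without the first HSF1-pLVX library and 9 without the first WT library. No member was called in the opposite direction under any of these or the other fits tried.

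**Figure D1:**
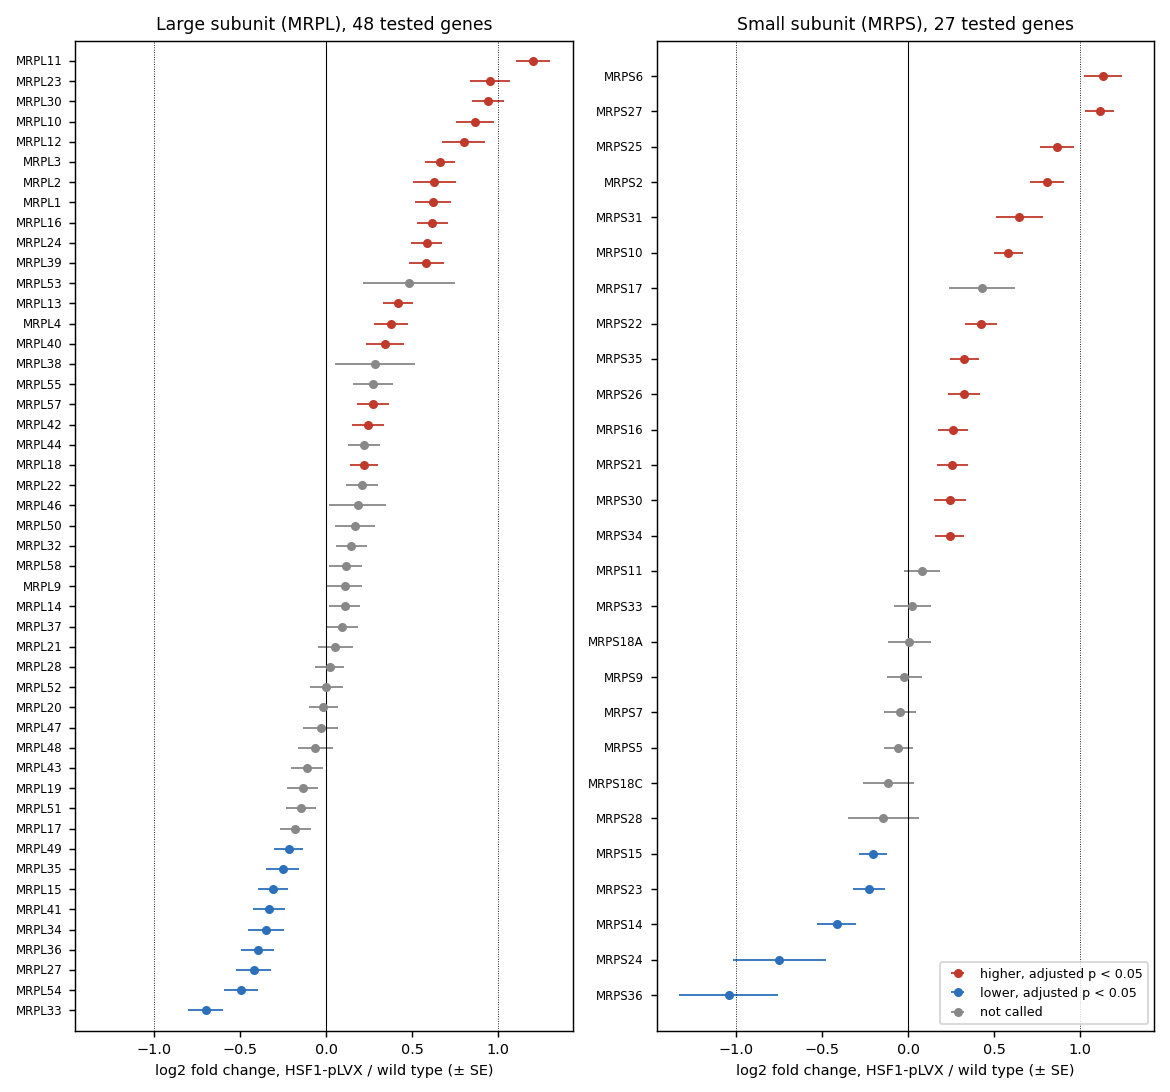
Log2 fold change of HSF1-pLVX over wild type (x axis, points with standard errors) for the 48 large subunit and 27 small subunit genes tested, ordered by value, with dotted lines at a 2-fold change. Red points are the 30 genes called higher, blue points the 14 called lower and grey points the 31 not called, and only 4 points lie beyond the dotted lines.

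In the large subunit, 17 of 48 tested genes rose (35.4%), 9 fell (18.75%) and 22 were not called, with a median log2 fold change of 0.16. Over all tested genes 32.7% rose and 33.2% fell, so the share of rises was near that of all genes. The genes of the stalks rose together. MRPL10, MRPL11 and MRPL12 form the flexible stalk that recruits translation factors, MRPL1 forms the other stalk beside the exit of the tRNA, and all 4 rose, with a median log2 fold change of 0.83. These and the groups by location below were drawn up with the values known, so their counts are a description.

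MRPL11 (ENSG00000174547.13, chr11:66435075-66466738) was at 28.2 and 24.5 CPM in WT libraries and at 57.4 and 64.0 CPM in HSF1-pLVX libraries. Both HSF1-pLVX libraries lay above both WT libraries, and the log2 fold change of 1.20 (SE 0.0993, adjusted p = 9.25e-08) was the largest of all members tested. MRPL10 (ENSG00000159111.12, chr17:47823272-47831534), which anchors MRPL12 to the ribosome, was at 30.9 and 24.65 CPM in WT and at 47.8 and 53.5 CPM in HSF1-pLVX libraries. It rose without overlap by 0.86 on the log2 scale (SE 0.110, adjusted p = 8.14e-06). MRPL12 (ENSG00000262814.7, chr17:81703357-81707526), the stalk protein that contacts the factors, was at 12.6 and 11.6 CPM in WT and at 19.2 and 23.1 CPM in HSF1-pLVX libraries, a log2 fold change of 0.80 (SE 0.124, adjusted p = 5.48e-05). Of its counted bases 68.2% are shared with another gene model on the same strand that held 0 counts in all libraries. MRPL1 (chr4:77862520-77952790) was at 16.8 and 18.6 CPM against 26.3 and 28.2 CPM, a log2 fold change of 0.62 (SE 0.104, adjusted p = 0.000118). All 4 stalk genes were thus higher in both HSF1-pLVX libraries than in either WT library. Groups without overlap, in either direction, were found for 83.1% of all tested genes.

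MRPL2, MRPL3, MRPL4, MRPL13, MRPL14 and MRPL16 are homologues of bacterial proteins that bind the core of the large rRNA. Of these 6 genes 5 rose, and none fell, with a median log2 fold change of 0.52. Over all 30 large subunit genes with bacterial homologues, 13 rose and 6 fell. Among the falls outside the group were MRPL15 and MRPL35, with log2 fold changes of -0.31 (adjusted p = 0.00533) and -0.25 (adjusted p = 0.0313). MRPL3 (ENSG00000114686.8, chr3:131462212-131502983), whose bacterial counterpart reaches toward the peptidyl transferase centre, was at 65.7 and 59.3 CPM in WT and at 94.4 and 103.3 CPM in HSF1-pLVX libraries. Its log2 fold change was 0.66 (SE 0.0897, adjusted p = 1.48e-05), with no overlap between the groups. MRPL2 and MRPL16 changed by 0.63 and 0.62 on the log2 scale, MRPL13 by 0.42, and MRPL4, which lines the exit tunnel, by 0.38 (adjusted p = 0.00328). The call of MRPL4 was lost without the second HSF1-pLVX library. MRPL14 was at 45.2 and 40.6 CPM against 44.1 and 48.3 CPM, so the groups overlapped and it was not called (log2 fold change 0.11, adjusted p = 0.327).

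Around the opening of the exit tunnel, where new proteins leave for the inner membrane, 2 of 5 tested genes rose and none fell. MRPL23 (ENSG00000214026.10, chr11:1947278-1984522) was at 11.5 CPM in both WT libraries and at 21.0 and 23.5 CPM in HSF1-pLVX libraries. It was higher by 0.95 on the log2 scale (SE 0.115, adjusted p = 4.60e-06). MRPL24 rose by 0.58, while MRPL17, MRPL22 and MRPL47 were not called, with log2 fold changes from -0.18 to 0.21. Of 8 genes of the central protuberance, the part of the large subunit that faces the head of the small one, MRPL18 and MRPL40 rose, MRPL27 fell and 5 were not called. Among the latter was MRPL58, a peptidyl-tRNA hydrolase that frees stalled ribosomes, at 23.65 and 22.6 CPM in WT and 25.7 and 24.2 CPM in HSF1-pLVX libraries (log2 fold change 0.11, adjusted p = 0.332). MRPL30 (ENSG00000185414.19, chr2:99181079-99197626), outside these groups, was at 19.9 CPM in both WT libraries and at 37.3 and 39.0 CPM in HSF1-pLVX libraries. Its log2 fold change of 0.94 (SE 0.0941, adjusted p = 6.83e-07) was the third largest of the large subunit. It shares 19.5% of its counted bases with other gene models on the same strand, which held at most 8 counts in any library.

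Each of the 6 largest falls in the large subunit was in a gene for a protein of at most 148 amino acids. MRPL33 (ENSG00000243147.7, chr2:27771717-27988087), a bacterial homologue of 65 amino acids, was at 40.7 and 47.15 CPM in WT and at 28.4 and 25.5 CPM in HSF1-pLVX libraries. The groups were apart, and its log2 fold change of -0.70 (SE 0.102, adjusted p = 2.84e-05) was the largest fall of the subunit. The gene shares 21.1% of its counted bases with BABAM2 on the same strand, which had a log2 fold change of -0.20 (adjusted p = 0.111). MRPL54 (ENSG00000183617.4, chr19:3762664-3768575), found only in mitochondria, was at 38.7 and 33.85 CPM against 25.45 and 25.97 CPM, and fell by 0.50 on the log2 scale (SE 0.0979, adjusted p = 0.000446). Both had lower values in each HSF1-pLVX library than in either WT library.

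The next largest falls were smaller and also without overlap. MRPL27, whose bacterial counterpart reaches the peptidyl transferase centre, was at 41.8 and 36.5 CPM in WT and at 27.5 and 31.0 CPM in HSF1-pLVX libraries, a log2 fold change of -0.42 (SE 0.101, adjusted p = 0.00204). MRPL36, a bacterial homologue, was at 32.4 and 30.6 CPM against 22.8 and 24.97 CPM, a log2 fold change of -0.40 (SE 0.0972, adjusted p = 0.00227). MRPL34, also a bacterial homologue, was at 26.8 and 28.1 CPM against 20.04 and 23.2 CPM, a log2 fold change of -0.35 (SE 0.105, adjusted p = 0.00918). It shares 13.2% of its counted bases with ABHD8 on the other strand, which had a log2 fold change of -1.11 (adjusted p = 2.14e-06). MRPL41 was at 38.8 and 39.7 CPM in WT and at 29.9 and 32.5 CPM in HSF1-pLVX libraries, a log2 fold change of -0.33 (SE 0.0911, adjusted p = 0.00510). The calls of MRPL34 and MRPL41 were lost without the first HSF1-pLVX library.

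In the small subunit, 13 of 27 tested genes rose (48.15%), 5 fell (18.5%) and 9 were not called, with a median log2 fold change of 0.24. The shares over all tested genes were 32.7% and 33.2%. MRPS6 (ENSG00000243927.5, chr21:34073224-34143034), a bacterial homologue in the platform, was at 14.0 and 11.9 CPM in WT and at 27.9 and 29.0 CPM in HSF1-pLVX libraries. The groups were apart by more than the difference between libraries of either group, and its log2 fold change was 1.134 (SE 0.112, adjusted p = 6.07e-07). It shares 9.61% of its counted bases with other gene models, among them SLC5A3 on the same strand, whose log2 fold change was 1.40. The other platform genes were MRPS21, which rose by 0.26, and MRPS11 and MRPS18C, which were not called. MRPS18C, which unlike MRPS18A sits in the small subunit, was at 9.91 and 9.15 CPM against 9.72 and 7.80 CPM, with overlapping groups (log2 fold change -0.11, adjusted p = 0.520).

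MRPS27 (ENSG00000113048.16, chr5:72219409-72320646) encodes a pentatricopeptide repeat protein, a class that binds RNA, and has no bacterial homologue. It was at 42.6 and 45.75 CPM in WT and at 93.1 and 98.4 CPM in HSF1-pLVX libraries, and rose by 1.12 on the log2 scale (SE 0.0855, adjusted p = 4.27e-08), with tight replicates in both groups. MRPS25 (ENSG00000131368.7, chr3:15042460-15065335), also specific to mitochondria, was at 19.1 CPM in both WT libraries and at 33.3 and 36.4 CPM in HSF1-pLVX libraries, a log2 fold change of 0.87 (SE 0.0983, adjusted p = 2.43e-06). It shares 22.2% of its bases with NR2C2 on the other strand (log2 fold change 0.12, adjusted p = 0.245). MRPS2 (ENSG00000122140.10, chr9:135499984-135504673), which lies between the head and the body of the small subunit, was at 35.2 and 29.6 CPM against 54.9 and 58.5 CPM and rose by 0.81 (SE 0.0982, adjusted p = 5.03e-06). In each of these genes both HSF1-pLVX libraries lay above both WT libraries.

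Of 8 genes of the head of the small subunit, MRPS10, MRPS31 and MRPS35 rose, MRPS14 and MRPS24 fell, and MRPS7, MRPS9 and MRPS33 were not called. MRPS31 was at 13.1 and 10.1 CPM in WT and at 17.1 and 19.3 CPM in HSF1-pLVX libraries (log2 fold change 0.65, adjusted p = 0.000782), and this call was lost without the second HSF1-pLVX library. Pseudogenes of MRPS31 held 135 counts over all libraries, or 10.8% of the 1246 counts of the gene itself. MRPS7, which begins the assembly of the head in bacteria, was at 48.4 and 42.2 CPM against 43.0 and 44.8 CPM, with overlapping groups. MRPS14 (ENSG00000120333.4, chr1:175010789-175023425) was at 16.8 and 16.6 CPM in WT and at 12.5 and 12.6 CPM in HSF1-pLVX libraries and fell by 0.42 on the log2 scale (SE 0.114, adjusted p = 0.00508). This call was lost without the second HSF1-pLVX library. MRPS24 (ENSG00000062582.13, chr7:43866558-43869893), at the entry of the mRNA channel, was the lowest small subunit gene tested, with 42 and 43 counts in WT and 36 and 25 in HSF1-pLVX libraries. Its log2 fold change of -0.75 (SE 0.273, adjusted p = 0.0258) lost its call in DESeq2's Wald test (adjusted p = 0.147) and without any one library.

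The largest fall among the members was that of MRPS36 (ENSG00000134056.11, chr5:69217760-69230129), and it rested on 1 library. The gene had 121 and 286 counts in WT and 124 and 113 in HSF1-pLVX libraries, or 6.45 and 15.4 CPM against 4.94 and 5.69 CPM. The second WT library stood far above the other three libraries. The log2 fold change was -1.04 (SE 0.288, adjusted p = 0.00538), and -0.30 without that library (adjusted p = 0.238). MRPS36 was also no longer called in DESeq2's Wald test or without the second HSF1-pLVX library. Its pseudogenes held 47 counts over all libraries, or 7.30% of the 644 counts of the gene itself. A further row named MRPS36 in the deposited normalized table lay at the value of 0 counts in every library.

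Several other small subunit genes changed by less. MRPS22 rose by 0.42 (adjusted p = 0.00101) under every fit tried. MRPS16, MRPS30 and MRPS34 rose by 0.26, 0.24 and 0.24, and MRPS15 and MRPS23 fell by 0.20 and 0.23, but each of these 5 lost its call in DESeq2's Wald test and without at least 2 of the libraries taken out one at a time. MRPS15, which binds the central domain of the small rRNA in bacteria, was at 82.7 and 81.05 CPM in WT and at 69.3 and 73.0 CPM in HSF1-pLVX libraries (SE 0.0820, adjusted p = 0.0407). MRPS23, specific to mitochondria, was at 36.4 and 36.9 CPM against 29.8 and 32.9 CPM (SE 0.0925, adjusted p = 0.0420). Neither gene overlapped between the groups. MRPS30, whose protein sits in the large subunit, was at 29.99 and 30.7 CPM in WT and at 37.1 and 34.7 CPM in HSF1-pLVX libraries. MRPS18A, also in the large subunit, was at 19.0 and 15.2 CPM against 16.9 and 17.5 CPM, with overlapping groups (log2 fold change 0.01, adjusted p = 0.960).

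**Figure D2:**
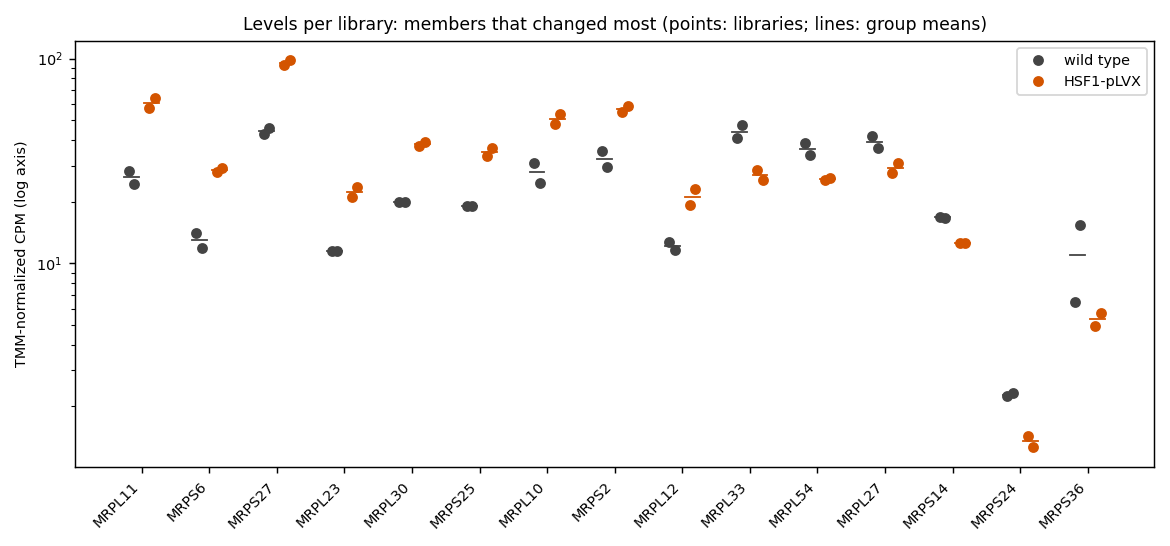
TMM-normalized CPM on a log axis in each library (points) with group means (lines) for the members that changed most, wild type in grey and HSF1-pLVX in orange. The 2 libraries of a group lie close together except for MRPS36, where wild type libraries are at 6.45 and 15.4 CPM.

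Levels differed far more between members than between the groups. Among the tested genes and scaled to counted gene length, large subunit levels in WT cells ranged from 0.885 CPM per kilobase for MRPL38 to 44.7 for MRPL14, with a median of 12.2. In HSF1-pLVX cells the same genes were at the ends, at 1.07 and 48.2, and the median was 14.1. Of the tested small subunit genes MRPS24 was lowest, at 0.871 CPM per kilobase in WT and 0.515 in HSF1-pLVX cells, and MRPS34 highest, at 56.7 and 67.0, with medians of 6.79 and 8.14. The counted length of MRPL38 shares 41.1% of its bases with other gene models, and that of MRPS24 23.2%. In all, 25 members share more than 10% of their bases with another gene. Where the counting could split such reads was not given in the sources used here, so the levels of these genes are uncertain. Without them 23 members were called higher and 9 lower, including the 4 beyond 2-fold.

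The subunits were then compared by summing all members within each library. MRPL45, MRPS12 and MRPS18B add almost nothing to these sums, although their counts cannot be read as absence, as given below. A copy of MRPL45 on a contig outside the main chromosomes is left out. The large subunit summed to 1623.6 and 1557.0 CPM in WT and to 1708.0 and 1809.4 CPM in HSF1-pLVX libraries. The means were 1590 ± 47.1 and 1759 ± 71.7 CPM (SD, n = 2 each), a ratio of 1.11. The small subunit summed to 817.8 and 799.0 CPM in WT and to 955.7 and 1002.7 CPM in HSF1-pLVX libraries, with means of 808.4 ± 13.3 and 979.2 ± 33.2 CPM and a ratio of 1.21. Both sums were higher in each HSF1-pLVX library than in either WT library. The small subunit sum was 0.504 and 0.513 of the large subunit sum in WT and 0.560 and 0.554 in HSF1-pLVX libraries, again without overlap. An exact permutation test of 2 libraries against 2 cannot give a two-sided p below 0.33, so no exact test of these sums could reach 0.05.

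MRPS27 carried much of the difference between the subunits. Without it the small subunit ratio of HSF1-pLVX to WT was 1.16, and the small subunit sum was 0.477 and 0.484 of the large one in WT and 0.505 and 0.500 in HSF1-pLVX libraries. This version was chosen after seeing the data, and no large subunit gene was left out beside MRPS27. With MRPS30 and MRPS18A counted to the large subunit and MRPS36 left out, the proportion was 0.456 and 0.460 against 0.509 and 0.508. The groups were apart in each of these versions. The medians of the subunits, 0.16 and 0.24 on the log2 scale, lay closer to each other than the quartiles within either, which ran from -0.12 to 0.43 in the large and from -0.09 to 0.43 in the small subunit.

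**Figure D3:**
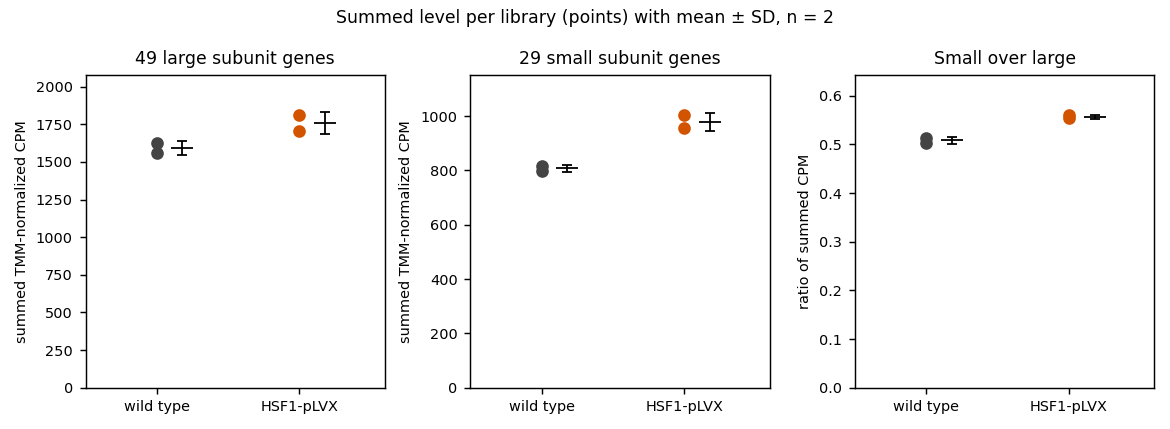
Summed TMM-normalized CPM of all 49 large subunit and 29 small subunit genes, and the small sum divided by the large sum, in each library (points) with mean ± SD (n = 2). HSF1-pLVX libraries lie above wild type libraries in all panels, the small sum being 0.504 and 0.513 of the large in wild type and 0.560 and 0.554 in HSF1-pLVX libraries.

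Divided by place and ancestry, the members of the small subunit that are found only in mitochondria had the highest median. Mitoribosomal genes with names outside the MRP series, of which 1 of 5 rose and 3 fell, are not in these counts. Of the 9 tested mitochondria-specific members of the small subunit 7 rose and 1 fell, with a median log2 fold change of 0.33. Of 15 small subunit members with bacterial homologues 5 rose and 3 fell, with a median of -0.02. The large subunit had the opposite order. There 13 of 30 bacterial homologues rose and 6 fell (median 0.18), and 5 of 20 mitochondria-specific genes rose and 3 fell (median 0.14). These counts rest on few genes and no test was made of the difference.

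Log2 fold changes tended to be higher in members that encode longer proteins. Of 22 members of up to 150 amino acids 5 rose and 8 fell, of 29 between 150 and 250 amino acids 12 rose and 4 fell, of 16 between 250 and 350 amino acids 9 rose and 2 fell, and of 8 longer ones 4 rose and none fell. Over all tested protein-coding genes in the same length classes, shortest first, 30.6, 29.9, 32.1 and 33.8% rose and 39.0, 39.5, 35.4 and 36.2% fell, so the share of falls among the shortest members was near that of all genes of their length. Across the 75 tested members Spearman's rho between protein length and log2 fold change was 0.32, and it was 0.39 in the large and 0.22 in the small subunit. The same measure was 0.01 over 12597 tested protein-coding genes, 0.36 over 77 cytosolic ribosomal protein genes and 0.58 over 73 nuclear genes of the respiratory chain. These are descriptions across genes that share the same 4 libraries, and genes are not independent replicates. With counted gene length in place of protein length, rho over the members was 0.09.

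**Figure D4:**
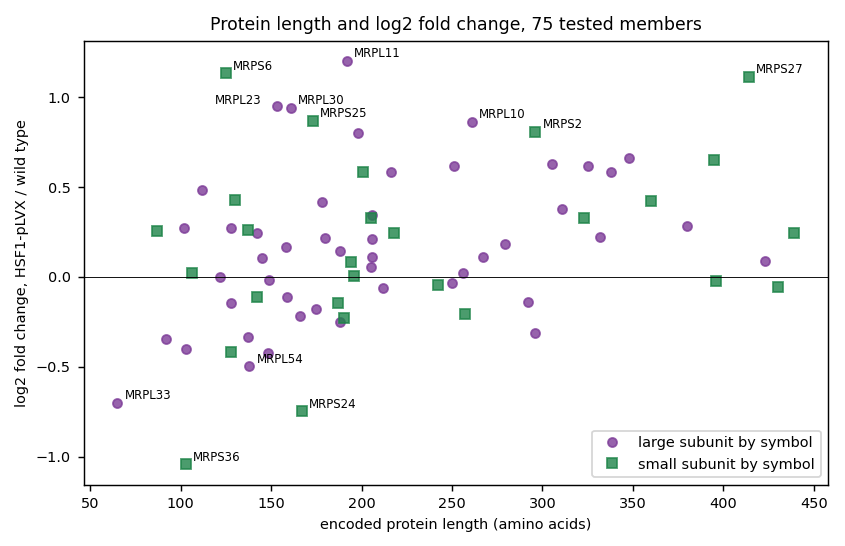
Log2 fold change of HSF1-pLVX over wild type (y axis) against the length of the encoded protein in amino acids (x axis) for the 75 tested members, large subunit as circles and small subunit as squares. Genes below -0.4 all encode proteins of under 170 amino acids, but MRPS6, MRPL23 and MRPL30, with 125, 153 and 161 amino acids, rose as well, as did the longer MRPL11 and MRPS27.

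MRPL45, MRPS12 and MRPS18B did not pass the filter, and their counts cannot be read as absence of the transcripts. MRPS18B (ENSG00000204568.11, chr6:30617709-30626395) had 0 counts in all 4 libraries, and MRPS12 (ENSG00000128626.11, chr19:38930548-38933162) had 1 and 1 in WT and 5 and 3 in HSF1-pLVX libraries. MRPL45 (ENSG00000278845.4, chr17:38297023-38323218) had 0 and 3 in WT and 2 and 5 in HSF1-pLVX libraries. SARS2, which shares 349 bases with MRPS12 on the other strand, was also near 0, with 0 and 0 counts in WT and 1 and 0 in HSF1-pLVX libraries. The count table holds 5637 genes on contigs outside the main chromosomes, and one of them, ENSG00000277936.4 on KI270857.1, has the same values as a further row named MRPL45 in the deposited normalized table. That copy had 222 and 116 counts in WT and 579 and 251 in HSF1-pLVX libraries, or 11.8 and 6.24 CPM against 23.1 and 12.6 CPM. Its groups did not overlap, by a narrow margin, with the first library of each group higher than the second, and the log2 fold change was 0.99 (SE 0.264, adjusted p = 0.00417). How reads with several matches were assigned is not given in the sources used here.

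Other proteins of the mitochondrial ribosome carry names outside the MRP series. Of 5 such genes AURKAIP1, CHCHD1 and GADD45GIP1 fell, by 0.25, 0.32 and 0.26 on the log2 scale. PTCD3, a pentatricopeptide repeat protein of the small subunit as MRPS27 is, was at 31.7 and 31.2 CPM in WT and at 62.9 and 66.0 CPM in HSF1-pLVX libraries, and rose by 1.03 (SE 0.0861, adjusted p = 9.87e-08). DAP3, a GTP-binding protein of the small subunit, had a log2 fold change of 0.16 and was not called (adjusted p = 0.103).

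Genes that build and serve the mitochondrial ribosome were examined beside its protein genes. For the counts here and in the lists below, 32.7% of all tested genes were called higher and 33.2% lower. Of 24 tested assembly factors 13 rose and 1 fell, with a median log2 fold change of 0.29. RPUSD4, a pseudouridine synthase of the large rRNA, was at 26.8 and 24.2 CPM in WT and at 51.8 and 57.0 CPM in HSF1-pLVX libraries (log2 fold change 1.09, adjusted p = 1.75e-07), while MPV17L2 fell by 1.12. Of 16 translation factors 10 rose and 1 fell (median 0.39). LRPPRC, which stabilises mitochondrial mRNAs, rose from 92.0 and 92.7 CPM to 264.4 and 260.9 CPM (log2 fold change 1.51, adjusted p = 2.37e-09), and MTRF1L, a release factor, fell by 0.73. Of 18 tested aminoacyl-tRNA synthetases and related genes of the organelle 11 rose, WARS2 the most with 1.02, and none fell (median 0.31).

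Of 14 regulators of mitochondrial transcription and biogenesis 7 rose and none fell. MYC rose from 80.5 and 89.9 CPM to 535.8 and 523.6 CPM (log2 fold change 2.64, adjusted p = 4.26e-11). TFAM, which packages mitochondrial DNA and starts its transcription, rose by 1.05. PPARGC1A, with 0 and 5 counts in WT and 16 and 29 in HSF1-pLVX libraries, had the largest fitted value at very few counts. Among those not called were the ETS factor GABPA, with a log2 fold change of 0.14 (adjusted p = 0.305), and YY1, with 0.00 (adjusted p = 0.974). Binding of these factors to the members' promoters was not tested.

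Of the 13 mitochondrially encoded mRNAs, the templates of the mitochondrial ribosome, 5 rose and none fell, with a median log2 fold change of 0.22, and MT-ND2 rose the most by 0.67 (adjusted p = 0.000604). The ribosome's own rRNAs, MT-RNR1 and MT-RNR2, were called higher, by 0.52 and 0.42 on the log2 scale. The libraries had been depleted of rRNA, so these counts cannot be read as rRNA levels. Among the 73 tested nuclear genes of the respiratory chain 18 rose and 19 fell with a median of 0.03, from NDUFC1 at -0.87 to NDUFV1 at 1.02.

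Genes of the cytosolic ribosome, which translates nuclear mRNAs, rose almost without exception. Of 77 cytosolic ribosomal protein genes 75 rose and none fell, with a median log2 fold change of 1.03 against 0.17 for the mitochondrial members, and every one of the 77 had a positive value. Their sum was 33906.1 and 30686.3 CPM in WT and 60895.9 and 73204.9 CPM in HSF1-pLVX libraries, a ratio of 2.08 against 1.14 for the summed members. CPM here are relative levels scaled by TMM, and these genes took up a larger part of the HSF1-pLVX counts. With library size as the only normalization, the median over all tested genes was 0.08 on the log2 scale, against 0.02 with TMM. Whether this rise affected the values of other genes was not tested.

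**Figure D5:**
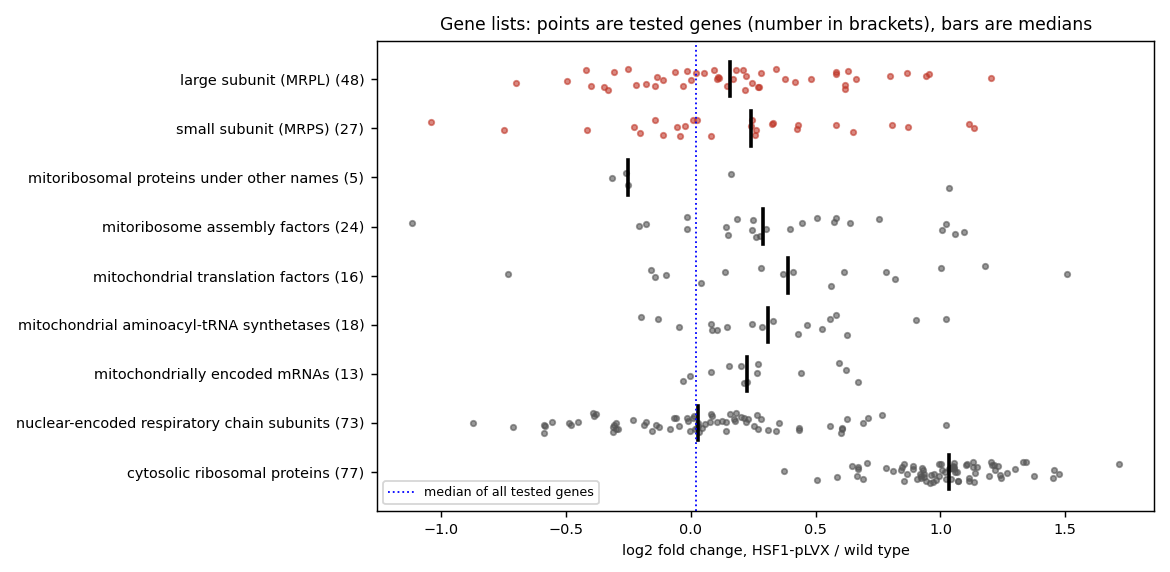
Log2 fold change of HSF1-pLVX over wild type for each tested gene (points) of the mitochondrial subunits in red and of related gene lists in grey, with list medians as black bars and the median of all tested genes as a dotted line. Cytosolic ribosomal protein genes lie at a median of 1.03, and the mitochondrial subunits at 0.16 and 0.24.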

How the data were processed

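Total RNA depleted of rRNA was sequenced as paired-end reads. According to the processing notes, the authors aligned reads to hg38 with HISAT2 (2.0.5), handled them with SAMtools (1.13), counted them with featureCounts (1.6.5) and normalized them with DESeq2 (1.32.0). Strand and multi-mapping settings are not given in the sources used here. The deposited counts per gene were tested as they were. The normalized log2 values deposited by the authors were used to match symbols to counts, 78 of 78 members matching within 0.001, and as an alternative. MRPS18B, at 0 counts in every library, matched at all 7 of its rows, so its match could not check the symbol. No column holds the authors' own comparisons.

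The test was edgeR 4.0.16 in R 4.3.3 (TMM, filterByExpr defaults, quasi-likelihood, Benjamini-Hochberg adjustment). It was tested on simulated data. Alternatives covered normalization, filter, DESeq2 1.42.0, the replicate block and each library left out. Promoter sequences and protein lengths came from reference annotation.

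The members, gene lists and tests were chosen with earlier results of these data known. The genes named were members beyond 2-fold, the 5 largest rises and falls per subunit that moved alike in both replicate numbers, a fixed list, and the extremes in level; others were named by location after their values were seen. One result that this rule covers is not reported here. Standard errors came from the quasi-likelihood test and include its estimate of the spread between libraries, which rests on 2 libraries per group.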

Additional observations from a re-analysis of the deposited data

How the results depend on the processing

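The counts of called members moved with the fit but never turned direction. Against 30 higher and 14 lower, DESeq2's Wald test called 22 and 8, edgeR with DESeq2's size factors 26 and 14, with library size only 34 and 10, and without the filter on low counts 25 and 10. Leaving out 1 library at a time gave 17 to 29 higher and 6 to 11 lower. Requiring more than 2-fold left 3 members higher and 1 lower, and 2358 and 2218 of all tested genes. The median of the small subunit, 0.24 on the log2 scale, was 0.30 with library size only and ranged from 0.16 to 0.24 with 1 library left out. Leaving out members that share more than 10% of their bases, an alternative chosen after seeing the data, gave 23 higher and 9 lower. The medians of the large subunit and the ratios of the summed levels moved by less than the spread between replicates. The cause of these shifts was not tested. Fits that left libraries or members out also held fewer samples or genes, and the part of this in the shifts was not tested either. For single genes, 270 values under alternatives stayed on their side of the threshold and 45 lost their call.

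No source says that a replicate number marks a shared culture. Deviations of same-numbered libraries from their group means correlated at 0.000143 over all tested genes and at -0.11 over 9672 genes above 8 CPM. With the replicate number as a block, 29 members were called higher and 11 lower, all of them among the calls without the block. A crossed pairing, added after seeing the data, gave 33 higher and 15 lower. The 2 libraries per group limit how small a change could be called.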
